A study of Mus musculus with 74 samples.

Results

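The 8 genes described here encode chemokines that T cells can secrete or that mark type 1 and type 2 immune responses: Ccl1, Ccl3, Ccl4, Ccl5, Xcl1, Cxcl10, Ccl17 and Ccl22. They were taken by gene symbol from 13817 genes tested, and for each gene the probe with the highest mean over all 74 arrays was read. All 8 passed the filter on dim probes. Naive CD4+ CD62Lhi T cells were purified with magnetic beads from pooled spleens and lymph nodes of Balb/c mice aged 5 to 8 weeks and were profiled at 0 h, without stimulation, on Illumina Mouse Sentrix-6 bead arrays. All other arrays come from cells activated with antibodies against CD3 and CD28 in 4 cultures, sampled at 3, 6, 12, 24, 35, 48, 73, 96 and 120 h. Th0 cultures received antibodies against IL-12, IFN-γ and IL-4. Th1 cultures received IL-12 and anti-IL-4, and Th2 cultures received IL-4 with anti-IL-12 and anti-IFN-γ. Th1/2 hybrid cultures, labelled ThMix, received IL-12 and IL-4 and no blocking antibody. The antibodies therefore differ between cultures along with the cytokines, and the cultures were moved and split on day 2. Each of the 37 conditions has 1 array from each of 2 experiments, and p-values measure the spread between these arrays. These are bulk cultures of pooled mice, so more RNA per cell and more cells that make a transcript cannot be told apart.

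Chemokines are small secreted proteins that steer leukocytes through receptors coupled to G proteins, and they are grouped by the spacing of their first cysteines into CC, CXC, C and CX3C types. Activated T cells use them to draw in macrophages, dendritic cells and other T cells. Ccl3, Ccl4 and Ccl5 (MIP-1α, MIP-1β and RANTES) attract macrophages and effector T cells, and Xcl1 (lymphotactin) attracts dendritic cells that carry Xcr1. Ccl1 is the ligand of Ccr8. Cxcl10 is induced by IFN-γ and binds Cxcr3, and Ccl17 and Ccl22 bind Ccr4, are made mostly by dendritic cells and are linked to IL-4 signalling through STAT6.

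Values are log2 normalized intensities, and the median of all values on the arrays was 6.77. Levels of different probes were not set against each other. A fold is a ratio of normalized intensities, and it is given as "at least" where the lower level is under 7.77, 1 log2 unit above that median, since a probe that dim does not measure how low the transcript was. A gene is called near background where the highest of its 37 condition means lies below the same 7.77, and this held for Ccl17, with a highest mean of 7.45, and for Ccl22, with 7.0. The T-cell markers Cd3e and Cd3g were bright throughout, with condition means of 13.30 to 14.61 and 13.10 to 15.12, and Cd4 lay between 8.20 and 9.63. Cd8b1 ranged from 11.30 to 12.54 while Cd8a was near background. All 4 NK cell markers and 5 of 6 dendritic cell markers were near background in all conditions. The naive arrays also carried signal of Lyz2 (9.75), Siglech (9.67) and Cd79b (9.60), markers of myeloid cells, plasmacytoid dendritic cells and B cells. At 24 and 35 h, when Ccl3 and Ccl4 were highest, the summed level of 6 macrophage and monocyte markers lay between 9.06 and 9.21 on the arrays of all 4 cultures. It was higher before, at 10.50 and 11.16 on the naive arrays and between 9.12 and 10.42 at 3 to 12 h. The ranges of the 4 cultures overlapped at 3 to 12 h, and the part of these cells in the early ligand levels was not tested. The arrays of Th1/2 cells at 12 h in experiment 1 and of Th0 cells at 96 h in experiment 2 stand apart from the rest of the series, and the few results that change without them are named below.

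Activation brought up 5 of the 8 ligands. Ccl1, Ccl3, Ccl4 and Xcl1 were kinetic in each of the 4 cultures and Ccl5 in Th0 and Th1 cells, where a kinetic gene is one with an adjusted p under 0.05 in limma's joint F-test of the 9 later times against the naive cells and with a change of 2-fold or more, in the same direction, at neighbouring times. That is 5 of 8 in Th0 cells against 26.4% of all genes, 5 in Th1 cells against 27.1%, 4 in Th1/2 cells against 28.9% and 4 in Th2 cells against 28.3%. In each of these cases the largest change was a rise, as for 15% of all genes in Th0 cells, 16.2% in Th1/2 cells, 15.8% in Th2 cells and 15.3% in Th1 cells. The ligands peaked at different times, Xcl1 at 6 or 12 h, Ccl1 at 12 h, Ccl3 and Ccl4 at 24 or 35 h and Ccl5 at 48 h or later. Cxcl10, Ccl17 and Ccl22 were not kinetic in any culture.

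**Figure D1:**
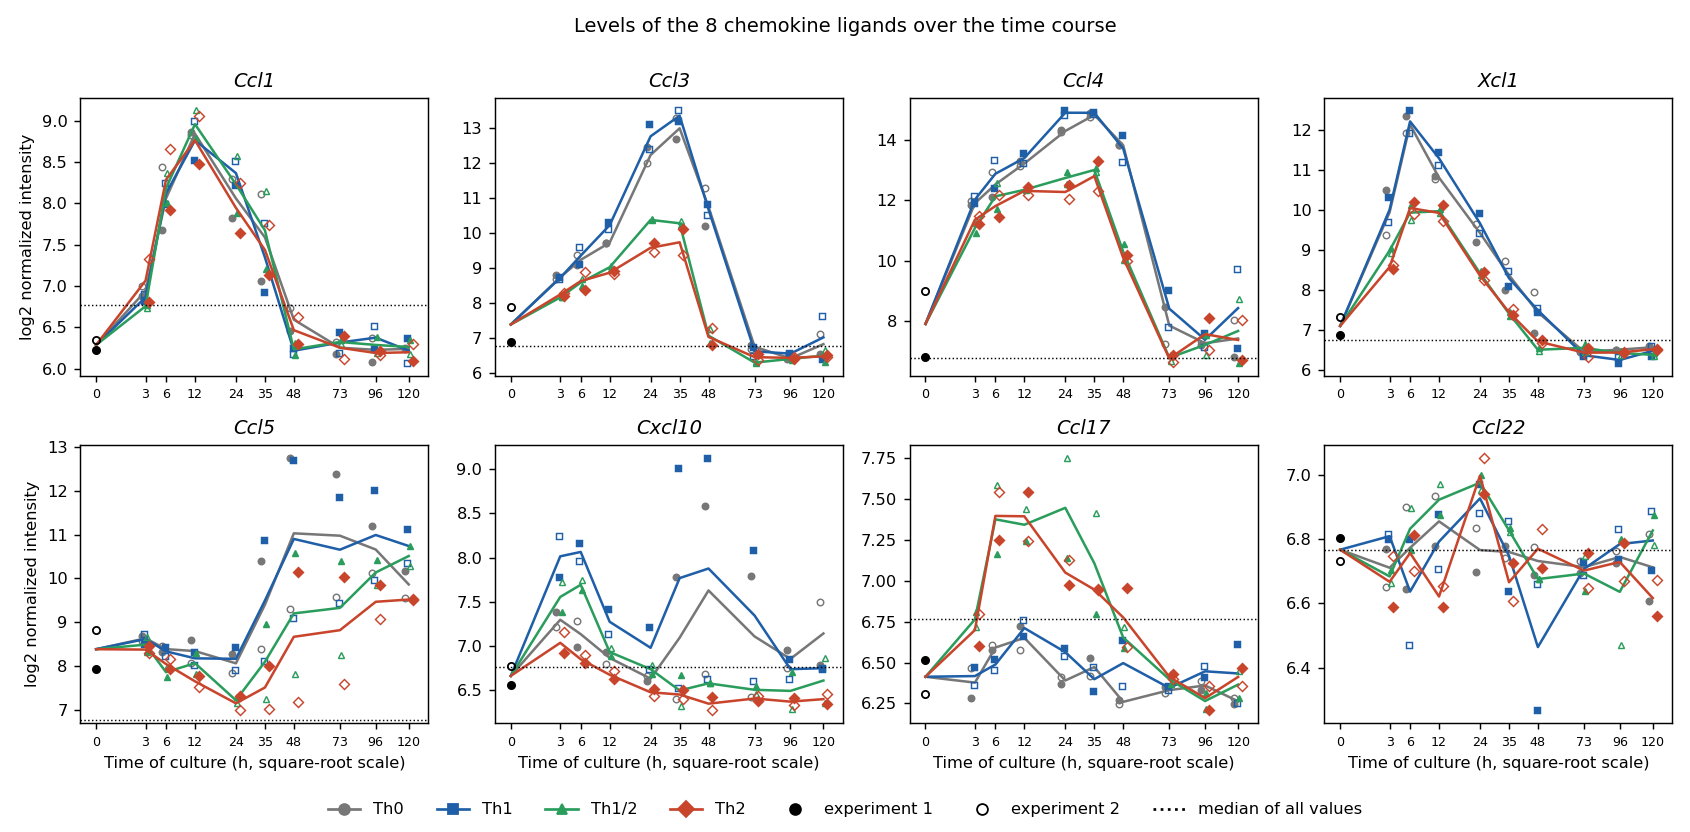
Levels of the 8 ligands as log2 normalized intensity against time of culture in hours on a square-root scale, with 1 line per culture through the means and 1 point per array, filled for experiment 1 and open for experiment 2. Ccl3, Ccl4 and Xcl1 reached higher levels in Th0 and Th1 cells than in Th1/2 and Th2 cells, Ccl1 rose alike in all 4 cultures, and Ccl17 and Ccl22 stayed near the median of all values (6.77, dotted line).

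Ccl3 rose most in Th0 and Th1 cells, and both cultures that received IL-4 lagged behind. On the naive arrays its level was 6.88 in experiment 1 and 7.91 in experiment 2. At 35 h it stood at 12.70 and 13.30 in Th0 cells, at 13.21 and 13.52 in Th1 cells, at 10.23 and 10.35 in Th1/2 cells and at 10.11 and 9.38 in Th2 cells. The 4 arrays of Th0 and Th1 cells were all above the 4 arrays of Th1/2 and Th2 cells, by more than any difference between the experiments. Relative to 0 h Ccl3 rose in Th1 cells by 5.97 (log2) (SE 0.30, at least 62.5-fold, 6.33 and 5.61 in the 2 experiments, adjusted p = 5.45e-20) and in Th0 cells by 5.61 (at least 48.7-fold). Th1/2 cells rose by 2.89 (at least 7.42-fold) and Th2 cells by 2.35 (at least 5.09-fold), both with adjusted p of at most 1.61e-08. The rise was past the test from 3 h on in Th0 and Th1 cells and from 6 h on in the other cultures.

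By 48 h the transcript was already falling. Th0 cells held 10.20 and 11.31 and Th1 cells 10.84 and 10.53, whereas Th1/2 cells were at 6.88 and 7.28 and Th2 cells at 6.80 and 7.28, close to the naive level. From 73 h on, all arrays of the 4 cultures lay between 6.30 and 7.65. In Th1/2 cells at 73 h the level was below that of the naive cells by 1.09 (6.30 and 6.32, adjusted p = 0.00318 by limma's test). Both means lay under 7.77, so the size of this drop is not measured. The naive arrays were far apart, at 6.88 and 7.91. Th0 and Th2 cells were nearly as low at 96 h, with means of 6.43 and 6.44.

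The difference between Th1 and Th2 cells in Ccl3 grew from 1.36 at 12 h (adjusted p = 0.0310) to 3.19 at 24 h, 3.62 at 35 h (12.3-fold, 95% interval 3.00 to 4.23, 3.10 and 4.14 in the 2 experiments, adjusted p = 1.94e-11) and 3.64 at 48 h (at least 12.5-fold, adjusted p = 1.30e-11). Th1/2 cells differed from Th0 cells in the same way, by -2.71 at 35 h and -3.68 at 48 h (adjusted p = 1.06e-11). No difference passed between Th1 and Th0 cells, whose interval at 35 h was -0.25 to 0.97, or between Th2 and Th1/2 cells, with an interval of -1.16 to 0.07. These comparisons share the Th0, Th1, Th1/2 and Th2 arrays with one another.

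Ccl3 (chromosome 11, 83647843 to 83649378 in GRCm38.p6) lies among CC chemokine genes, and RefSeq's span of Ccl4 (83648624 to 83664683) overlaps it. The 250 bases before the Ccl3 start (chr11:83649379-83649628, minus strand, RefSeq GRCm38.p6, printed 5′ to 3′) are shown because this gene differed between the cultures with and without IL-4 both early and late. Promoters were searched on both strands for 5 motifs, with matches in capitals: TTCNNNGAA (STAT), the same with 1 more N (STAT6 type), GAAA and GAAA with NN between them (interferon response, ISRE), GGGA and TTCC with NN between them (NF-κB), and TGANTCA (AP-1). The Ccl3 window held none of them. Of 32851 RefSeq promoters of this length, 7.02% held the first motif, 5.85% the second, 2.98% the third, 1.21% the fourth and 6.75% the fifth. A match or its absence describes these letters only.
Ccl3 promoter: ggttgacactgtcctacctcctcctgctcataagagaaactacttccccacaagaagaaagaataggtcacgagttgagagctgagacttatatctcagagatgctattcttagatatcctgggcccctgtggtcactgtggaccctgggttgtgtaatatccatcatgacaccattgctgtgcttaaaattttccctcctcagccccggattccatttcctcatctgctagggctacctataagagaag

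Ccl4, the partner of Ccl3 in the MIP-1 family, followed the same course and was up strongly within hours. Its naive arrays differed widely, at 6.81 in experiment 1 and 9.0 in experiment 2, so that rises against 0 h differ between the experiments. At 3 h the level was already 11.83 and 11.96 in Th0 cells, 11.89 and 12.14 in Th1 cells, 10.92 and 11.24 in Th1/2 cells and 11.22 and 11.48 in Th2 cells. All 8 of these arrays were above both naive arrays. The change against 0 h at 3 h lay between 3.17 (8.99-fold) in Th1/2 cells and 4.11 (17.2-fold) in Th1 cells.

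At 35 h Ccl4 reached 14.87 and 14.76 in Th0 cells, 14.91 and 14.85 in Th1 cells, 13.06 and 12.93 in Th1/2 cells and 13.28 and 12.30 in Th2 cells. In Th1 cells this was a rise of 6.97 (SE 0.61, 126-fold, 8.10 and 5.85 in the 2 experiments, adjusted p = 6.30e-13), and in Th2 cells a rise of 4.88 (29.5-fold, adjusted p = 6.26e-09). At 48 h the cultures stood farthest apart. Th0 cells had 13.82 and 13.81 and Th1 cells 14.15 and 13.25, against 10.56 and 10.03 in Th1/2 cells and 10.20 and 9.99 in Th2 cells.

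The Ccl4 difference between Th1 and Th2 cells at 48 h was 3.61 (SE 0.61, 12.2-fold, 3.96 and 3.26 in the 2 experiments, adjusted p = 8.09e-05), and Th1/2 cells were below Th0 cells by 3.52 (difference -3.52, adjusted p = 9.20e-05). At 24 h the Th1 to Th2 difference of 2.62 also passed (adjusted p = 0.0109), while that of 2.09 at 35 h did not (adjusted p = 0.0680). Of the 8 ligands, Ccl3 and Ccl4 were the 2 that passed both the 2-fold limit and the adjusted p between Th1 and Th2 cells at 48 h, as 1.29% of all genes did. The differences of Ccl5 (2.23, adjusted p = 0.406) and Cxcl10 (1.53, adjusted p = 0.145) at that time were also over 2-fold and did not pass. A second, dimmer Ccl4 probe ran in parallel over the 37 conditions (r = 0.989). It reached 13.18 and differed by 2.47 between Th1 and Th2 cells at 35 h (adjusted p = 1.44e-05).

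Xcl1, the lymphotactin gene on chromosome 1 (164931644 to 164935522), peaked at 6 or 12 h and separated the cultures within the first hours. The naive level was 6.89 and 7.32. At 3 h Th0 cells had 10.50 and 9.38, Th1 cells 10.32 and 9.69, Th1/2 cells 9.05 and 8.92 and Th2 cells 8.54 and 8.62. Already then, both arrays of Th0 and of Th1 cells were above all arrays of Th1/2 and Th2 cells.

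The peak came at 6 h in Th0 cells, with 12.34 and 11.91, and in Th1 cells, with 12.48 and 11.93. At the same time Th1/2 cells had 10.13 and 9.74 and Th2 cells 10.20 and 9.89. The rise against 0 h was 5.10 in Th1 cells (SE 0.26, at least 34.3-fold, 5.59 and 4.60 in the 2 experiments, adjusted p = 2.34e-19) and 5.02 in Th0 cells (at least 32.4-fold), against 2.94 in Th2 cells (at least 7.67-fold) and 2.82 in Th1/2 cells (at least 7.08-fold). The smallest of these 4 rises had an adjusted p of 3.94e-12. Xcl1 then declined over days, to 8.11 and 8.48 in Th1 cells and 7.38 and 7.52 in Th2 cells at 35 h, and all arrays from 73 h on lay between 6.18 and 6.66.

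At 6 h Xcl1 was higher in Th1 than in Th2 cells by 2.16 (SE 0.26, 4.47-fold, 2.28 and 2.04 in the 2 experiments, adjusted p = 6.35e-07). Th1/2 cells were lower than Th0 cells, with a difference of -2.19 (adjusted p = 4.15e-07). The Th1 to Th2 difference passed at 3, 6, 12 and 24 h and not at 35 h or later. Xcl1 was the 1 member past the 2-fold test between Th1 and Th2 cells at 6 h, against 0.246% of all genes. Of the genes tested, Rab11fip3, Nlrp6 and Lig3 had the time courses most like that of Xcl1 over the 37 condition means (Pearson's r from 0.945 to 0.955, with no test since the conditions share time and culture).

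The Xcl1 promoter window (chr1:164935523-164935772, minus strand) held none of the 5 motifs, as for Ccl3, and is shown because Xcl1 had the largest early difference of the 8 between Th1 and Th2 cells (1.65).
Xcl1 promoter: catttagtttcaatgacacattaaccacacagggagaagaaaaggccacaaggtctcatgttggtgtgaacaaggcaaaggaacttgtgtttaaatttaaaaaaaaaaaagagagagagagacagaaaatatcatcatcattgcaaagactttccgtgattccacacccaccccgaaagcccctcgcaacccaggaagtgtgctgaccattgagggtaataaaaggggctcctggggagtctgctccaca

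**Figure D2:**
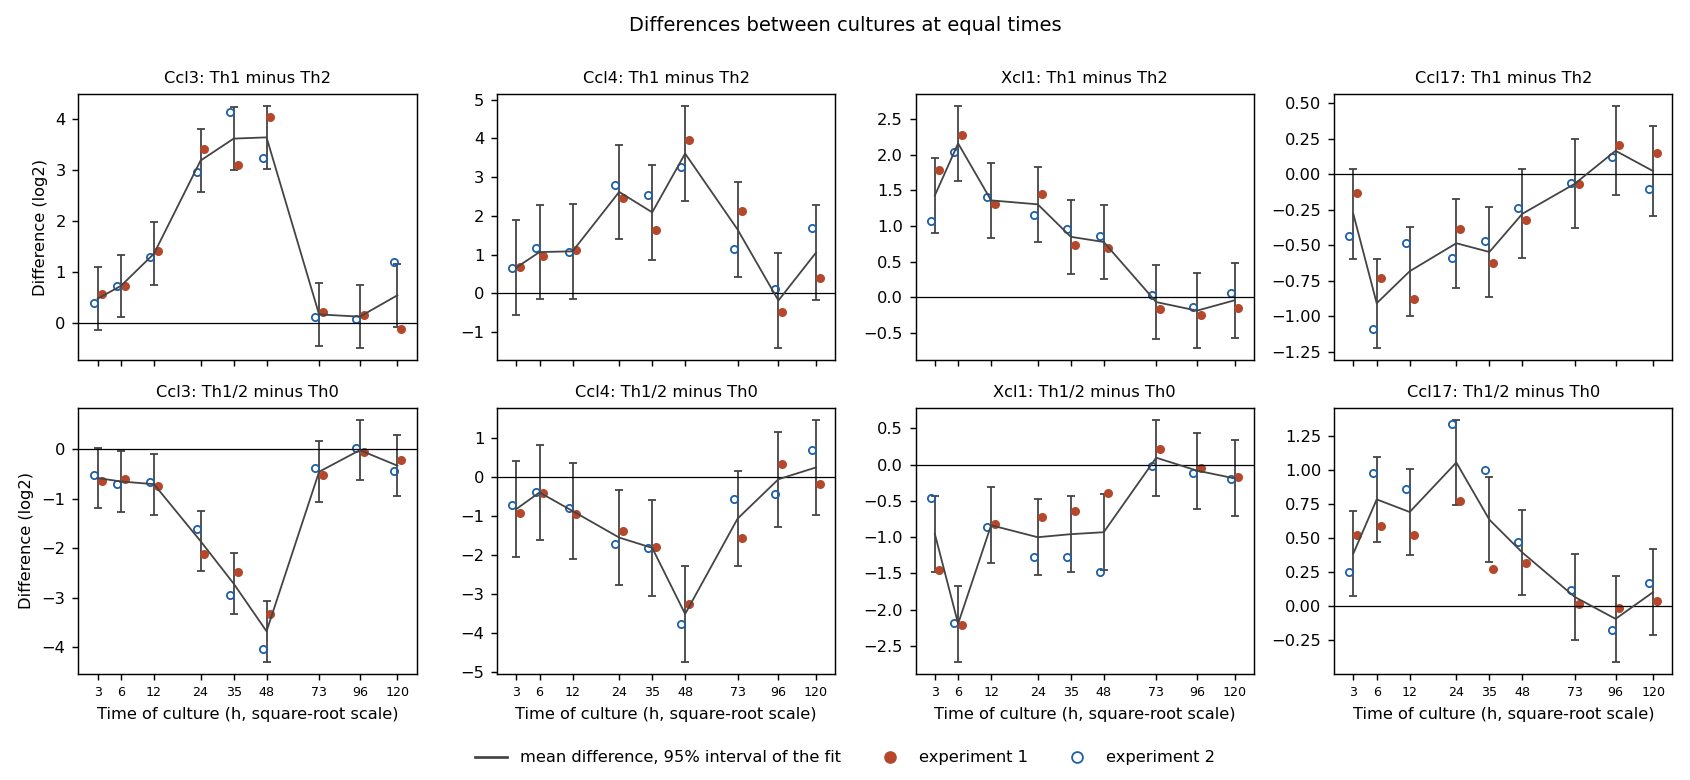
Differences in log2 level between Th1 and Th2 cells (upper panels) and between Th1/2 and Th0 cells (lower panels) for Ccl3, Ccl4, Xcl1 and Ccl17 against time of culture in hours on a square-root scale, as means with 95% intervals of the limma fit and 1 point per experiment. The Xcl1 difference was largest at 6 h (2.16 for Th1 minus Th2), those of Ccl3 and Ccl4 at 48 h (3.64 and 3.61), and that of Ccl17 ran the opposite way.

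Ccl1, the Ccr8 ligand at chromosome 11 (82176666 to 82179812), rose in all 4 cultures to nearly the same level. From 6.22 and 6.35 on the naive arrays it went to 8.86 and 8.82 in Th0 cells at 12 h, 8.53 and 9.0 in Th1 cells, 8.79 and 9.13 in Th1/2 cells and 8.47 and 9.06 in Th2 cells. The 4 cultures overlapped at this peak. The rise lay between 2.48 in Th1 cells (SE 0.30, at least 5.57-fold, adjusted p = 4.86e-09) and 2.67 in Th1/2 cells (at least 6.37-fold, adjusted p = 7.54e-10). It was past the test at 6, 12, 24 and 35 h in each culture, and from 73 h on all arrays lay between 6.07 and 6.51.

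No Ccl1 difference between cultures passed the test at any time. The largest of the differences at single times were 0.42 between Th1 and Th2 cells at 24 h (95% interval -0.19 to 1.03, 0.58 and 0.26 in the 2 experiments) and -0.38 between Th1 and Th0 cells at 48 h. The intervals at single times thus leave room for differences of up to about 2-fold. In the late window, the mean over 48 to 120 h with 8 arrays per culture, the Th1 minus Th2 difference was 0.00. The Ccl1 arrays of Th1 and Th2 cells lay between 6.07 and 6.63 there, below the median of all values. That 0.00 is thus a difference of levels too dim to measure. The Ccl1 promoter window (chr11:82179813-82180062, minus strand) held 2 overlapping NF-κB matches, at 196 and 195 bases before the start.

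Ccl5, a chemokine gene of effector and memory T cells (chromosome 11, 83525778 to 83530518), rose late and to very different heights in the 2 experiments. The naive level was 7.94 and 8.84, and from 3 to 24 h all arrays lay between 6.99 and 8.73. At 48 h Th0 cells had 12.75 in experiment 1 and 9.31 in experiment 2, and Th1 cells had 12.71 and 9.09. Th1/2 cells had 10.58 and 7.82 and Th2 cells 10.15 and 7.19.

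In both experiments Ccl5 was higher in Th0 and Th1 cells than in Th1/2 and Th2 cells at 48 h, but the experiments were 2.76 to 3.62 apart within a culture. At 73 h they were still 2.14 to 2.81 apart and at 120 h the gap had closed to between -0.04 and 0.78. The residual SD of Ccl5 over the arrays was 1.11, against a median of 0.15 over all genes. With this spread, the rise of 2.64 in Th0 cells at 48 h (SE 1.06, 6.23-fold, 4.81 and 0.47 in the 2 experiments) had an adjusted p of 0.0404, and that of 2.51 in Th1 cells (4.77 and 0.26) an adjusted p of 0.0522. The F-test over time passed in Th0 cells (adjusted p = 0.0361) and Th1 cells (0.0204) and not in Th1/2 cells (0.0995) or Th2 cells (0.456).

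Over the late window Ccl5 was higher in Th1 than in Th2 cells by 1.70 (SE 0.53, 2.04 and 1.36 in the 2 experiments, adjusted p = 0.0156) and lower in Th2 than in Th0 cells, with a difference of -1.51 (-1.74 and -1.29, adjusted p = 0.0296). Without the Th1 arrays of experiment 1 the former was 0.59 and without the Th2 arrays of experiment 2 it was 0.93, and neither passed. The Th2 minus Th0 difference was -0.52 without the Th0 arrays of experiment 1 (adjusted p = 0.632) and -0.74 without the Th2 arrays of experiment 2 (0.510), and it was -2.5 and -2.28 without those of the other experiment. With each experiment as a replicate block within time points, the Th1 minus Th2 difference of 1.70 had an SE of 0.14 and an adjusted p of 3.10e-12. In that blocked fit Ccl5 in Th1/2 cells also differed from Th0 cells (-0.84, adjusted p = 8.72e-06), Th1 cells (Th1 minus Th1/2 1.03, adjusted p = 3.85e-07) and Th2 cells (Th2 minus Th1/2 -0.67, adjusted p = 8.78e-04). None of these 3 passed without the block, where the adjusted p were 0.298, 0.224 and 0.713. With the block as a random term, the Th1/2 to Th0 and Th1 to Th1/2 differences passed (adjusted p = 0.0357 and 0.0124) and that of Th2 and Th1/2 cells did not (0.214). With the experiment as 1 block over all times, none of the 3 passed (adjusted p = 0.135, 0.0777 and 0.510). The Th1/2 to Th0 difference did not keep its sign through the window. At 120 h Th1/2 cells had 10.73 and 10.29, above the 10.18 and 9.55 of Th0 cells.

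**Figure D3:**
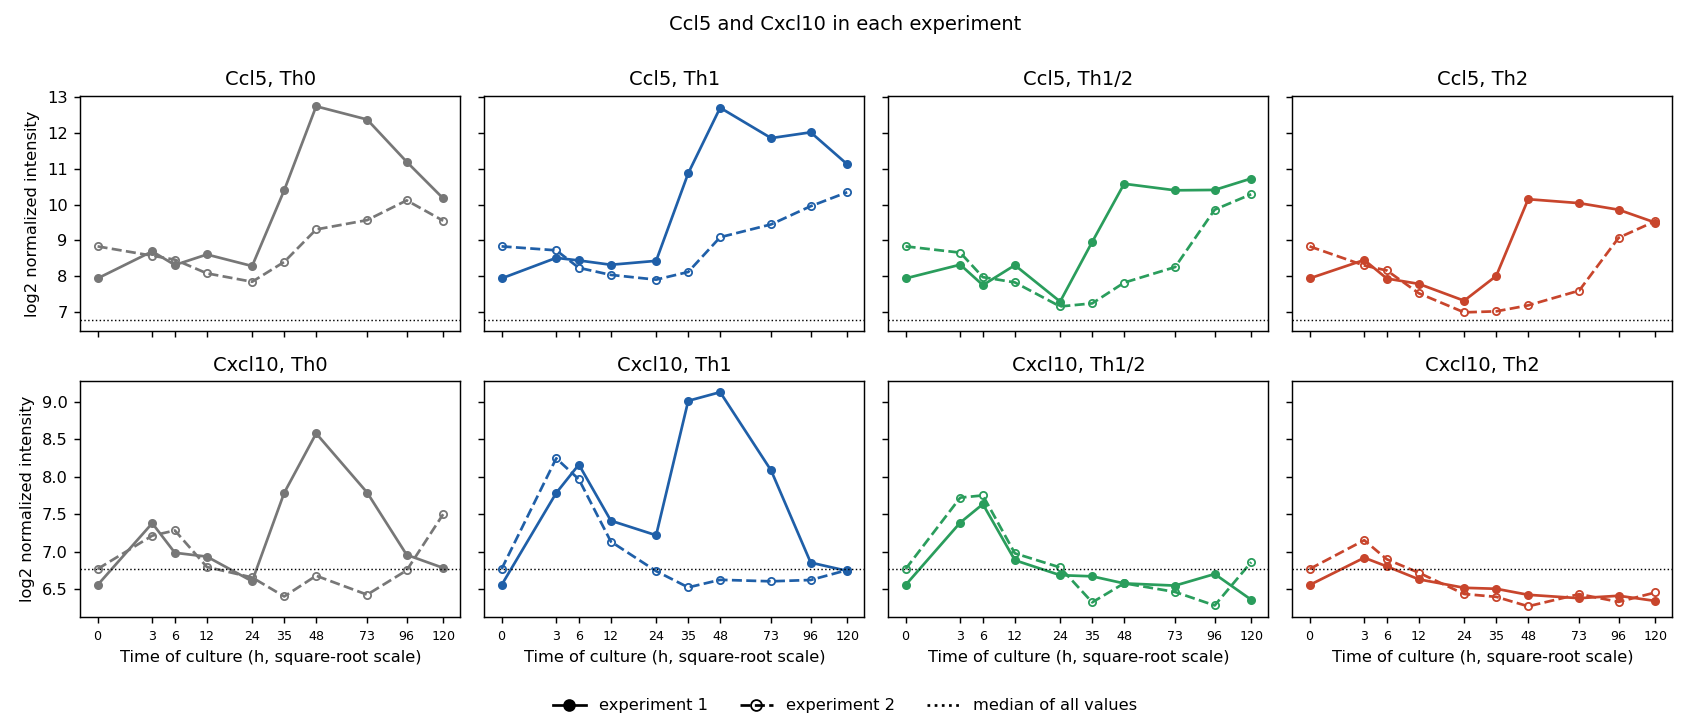
Ccl5 (upper panels) and Cxcl10 (lower panels) as log2 normalized intensity on each array of each culture against time in hours on a square-root scale, with a full line for experiment 1 and a broken line for experiment 2. At 48 h the Ccl5 levels of Th1 cells were 12.71 and 9.09, and those of Cxcl10 were 9.13 and 6.62.

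Cxcl10, the IFN-γ-induced Cxcr3 ligand on chromosome 5 (92346638 to 92348889), was low, with a highest condition mean of 8.06 in Th1 cells at 6 h. On the naive arrays it was 6.56 and 6.77. At 6 h Th1 cells had 8.16 and 7.97, Th1/2 cells 7.63 and 7.75, Th0 cells 6.99 and 7.28 and Th2 cells 6.80 and 6.90. The cultures with IL-12 were thus above those without it on all arrays at this time. They were also the cultures without anti-IFN-γ, and the parts of IL-12 and of this antibody were not tested separately. At 12 h the order no longer held on all arrays, with 6.89 and 6.98 in Th1/2 cells against 6.93 and 6.80 in Th0 cells.

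The early rise of Cxcl10 in Th1 cells at 6 h was 1.4 (SE 0.55, at least 2.64-fold, 1.61 and 1.20 in the 2 experiments, adjusted p = 0.0375). It was the only change of Cxcl10 at a single time to pass. Over the early window of 3 to 12 h, with 6 arrays per culture, the Th1 minus Th2 difference was 0.93 (adjusted p = 0.212), and with the replicate block within time points its adjusted p was 0.0146, against 0.132 with the experiment as 1 block over all times. The Th1/2 minus Th0 difference in this window was 0.29 and did not pass limma's test (adjusted p = 0.896). At 35 and 48 h a further high level appeared in experiment 1 alone, with 9.01 and 9.13 in Th1 cells and 7.79 and 8.58 in Th0 cells. The arrays of experiment 2 at the same times were at 6.52 and 6.62 in Th1 cells and 6.4 and 6.68 in Th0 cells, below the median of all values.

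Over the late window Cxcl10 was higher in Th1 than in Th2 cells by 0.80 (SE 0.27, 1.31 and 0.28 in the 2 experiments, adjusted p = 0.0313) and lower in Th2 than in Th0 cells (difference -0.80, -1.14 and -0.47, adjusted p = 0.0252). Without the Th1 arrays of experiment 1 the first was 0.27 (adjusted p = 0.572), and without the Th0 arrays of experiment 1 the second was -0.46 (adjusted p = 0.330). In the fit with the block within time points the late differences of Cxcl10 from Th1/2 cells passed as well (Th1/2 minus Th0 -0.64, Th1 minus Th1/2 0.63, adjusted p = 0.0136 and 0.0194), and they did not with the experiment as 1 block over all times (0.0646 and 0.0910). A second Cxcl10 probe stayed at or below 6.65 and did not follow the first (r = 0.08 over 37 conditions).

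The Cxcl10 promoter window (chr5:92348890-92349139, minus strand) is shown because the gene is a classical interferon target. It held 1 match each of the ISRE, NF-κB and AP-1 motifs, at 213, 159 and 74 bases before the start.
Cxcl10 promoter: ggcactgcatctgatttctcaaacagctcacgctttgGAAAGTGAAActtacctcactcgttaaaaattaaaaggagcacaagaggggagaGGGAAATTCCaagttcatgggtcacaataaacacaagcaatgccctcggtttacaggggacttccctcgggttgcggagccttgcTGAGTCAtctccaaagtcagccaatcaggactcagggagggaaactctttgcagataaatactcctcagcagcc

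Ccl17, a Ccr4 ligand on chromosome 8 (94809380 to 94812038), was near background and yet ran opposite to Ccl3, Ccl4 and Xcl1, with more signal in the 2 cultures that received IL-4. The naive level was 6.52 and 6.31. At 6 h Th2 cells had 7.25 and 7.55 and Th1/2 cells 7.16 and 7.59, against 6.58 and 6.61 in Th0 cells and 6.52 and 6.46 in Th1 cells. At 24 h Th1/2 cells had 7.14 and 7.75, Th2 cells 6.97 and 7.13, Th0 cells 6.37 and 6.41 and Th1 cells 6.59 and 6.54. At both times all arrays with IL-4 were above all arrays without it.

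The rise of Ccl17 in Th1/2 cells at 24 h was 1.03 (SE 0.16, 0.62 and 1.44 in the 2 experiments, adjusted p = 3.71e-07). In Th2 cells the largest change, 0.98 at 6 h, remained under 2-fold. At 24 h Th1/2 cells exceeded Th0 cells by 1.06 (0.77 and 1.34, adjusted p = 1.66e-05). Over the early window Ccl17 was lower in Th1 than in Th2 cells by a difference of -0.62 (SE 0.09, 95% interval -0.81 to -0.44, adjusted p = 6.92e-06), and Th1/2 cells exceeded Th0 cells by 0.62 (adjusted p = 4.68e-06). From 73 h on all arrays lay between 6.21 and 6.61.

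The dendritic cell markers, for a cell type that makes this ligand, overlapped between the cultures at 24 and 35 h, where their summed level over 6 genes was 9.27 to 9.39 in Th1/2 cells, 9.26 to 9.37 in Th2 cells, 9.27 to 9.39 in Th0 cells and 9.34 to 9.42 in Th1 cells. Over 3 to 12 h this sum also overlapped. It was 9.43 to 10.39 in Th1/2 cells, 9.47 to 10.08 in Th2 cells, 9.51 to 10.16 in Th0 cells and 9.54 to 10.10 in Th1 cells. The summed level of 3 B cell markers, of which Ms4a1 and Pax5 were near background and Cd79b was not, moved with Ccl17 at 24 and 35 h. It was 8.82 to 9.17 in Th1/2 cells and 8.89 to 9.37 in Th2 cells, against 8.42 to 8.68 in Th0 cells and 8.41 to 8.68 in Th1 cells. At 3 to 12 h it was 8.65 to 10.20 in Th1/2 cells, 9.38 to 10.54 in Th2 cells, 8.94 to 10.00 in Th0 cells and 8.60 to 9.57 in Th1 cells. Cd79b itself was lower in Th1 than in Th2 cells over this early window, as Ccl17 was, by a difference of -1.33 (adjusted p = 4.22e-05), while its differences between Th2 and Th0 cells (0.57, adjusted p = 0.290) and between Th1 and Th1/2 cells (-0.41, adjusted p = 0.588) did not pass. Their part in the Ccl17 difference was not tested.

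The Ccl17 promoter window (chr8:94810203-94810452, plus strand), which starts inside RefSeq's span of the gene, is shown because the gene differed by IL-4. It held 1 STAT6-type match at 154 and 1 STAT match at 99 bases before the start.
Ccl17 promoter: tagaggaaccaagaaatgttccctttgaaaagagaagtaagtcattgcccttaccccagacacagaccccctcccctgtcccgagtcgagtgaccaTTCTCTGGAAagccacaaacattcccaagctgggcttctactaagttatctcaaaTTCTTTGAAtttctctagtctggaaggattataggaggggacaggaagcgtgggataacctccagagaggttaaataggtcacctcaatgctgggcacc

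Ccl22, the other Ccr4 ligand of the set (chromosome 8, 94745684 to 94751388), gave no signal that could be followed. Its arrays lay between 6.27 and 7.05 throughout, around the naive level of 6.80 and 6.73. The F-test over time passed in Th1 cells (adjusted p = 0.0390) with a largest change of -0.30 at 48 h, and no change at a single time reached 2-fold. Its promoter window held none of the 5 motifs. The Ccl4 and Ccl5 promoters were not analysed here.

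Seen over all 9 time points, ligands differed between cultures with and without added IL-4. None passed between cultures that had the same state of IL-4 and differed in IL-12 and in the blocking antibodies. Few of all genes passed there, so the absence of ligands does not set them apart. Ccl3, Ccl4, Xcl1 and Ccl17, 4 of the 8, passed limma's F-test over time for Th1 against Th2 cells (12.5% of all genes), for Th2 against Th0 cells (16.7%), for Th1/2 against Th0 cells (16.5%) and for Th1 against Th1/2 cells (9.84%). None of the 8 passed for Th1 against Th0 cells (2.32% of all genes) or for Th2 against Th1/2 cells (1.98%), and in both of these none had an unadjusted p under 0.05 either. With the replicate block within time points, Ccl5 and Cxcl10 were added for Th1 against Th2 cells (25.9% of all genes) and for Th1 against Th1/2 cells (23.1%), and Ccl5 for Th2 and for Th1/2 against Th0 cells (34.6% and 33.5%). The comparisons share arrays and are therefore not independent of one another.

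In the early window 3 members, Ccl3, Xcl1 and Ccl17, differed in the same 4 comparisons, against 1.48% of all genes for Th1 and Th2, 1.7% for Th2 and Th0, 2.81% for Th1/2 and Th0 and 2.05% for Th1 and Th1/2 cells. The median Th1 minus Th2 difference was 0.60 over the 8 members and 0.00 over all genes. For Xcl1 the early Th1 minus Th2 difference was 1.65 (SE 0.15, adjusted p = 1.07e-10) and the Th1/2 minus Th0 difference -1.33 (adjusted p = 2.69e-08). For Ccl3 they were 0.85 (SE 0.18, adjusted p = 0.00240) and -0.64 (adjusted p = 0.0285). The latter no longer passed without the 2 arrays that stand apart (-0.63, adjusted p = 0.0764) or without any 1 of the Th0 or Th1/2 replicates (adjusted p from 0.0915 to 0.358), and the Th2 to Th0 difference of Ccl3, -0.65, no longer passed without any 1 of the Th0, Th1/2 or Th2 replicates (adjusted p from 0.0943 to 0.419). Counting these, the early Th2 to Th0 difference of Ccl3 no longer passed in 8 of its 19 alternative settings. With the replicate block within time points, Ccl4 (0.94, adjusted p = 0.00410) and Cxcl10 joined in Th1 against Th2 cells, making 5 of 8 where 3.52% of all genes passed.

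In the late window of 48 to 120 h, 4 members, Ccl3, Ccl4, Ccl5 and Cxcl10, were higher in Th1 than in Th2 cells and in Th0 than in Th2 cells, where 10.5% and 14% of all genes were (20.4% and 25% in either direction). The same 4 passed with the block within time points, against 30.1% and 34.6% of all genes. The late medians of the Th1 minus Th2 difference were 0.46 over the members and 0.00 over all genes. Ccl3 differed by 1.12 (SE 0.15, adjusted p = 1.61e-07) and Ccl4 by 1.53 (SE 0.30, adjusted p = 1.31e-04). Both rested on 48 h, since over 73 to 120 h the differences were 0.28 and 0.84 and neither passed (adjusted p = 0.332 and 0.090). Ccl3 and Ccl4, 2 of the 8, also separated Th1/2 from Th0 cells (23.9% of all genes) and Th1 from Th1/2 cells (15.7%), and with the block within time points these counts were 5 (34.1%) and 4 (25%), with the experiment as 1 block over all times 2 and 2. The Ccl4 difference between Th1/2 and Th0 cells, -1.10, was lost without the Th0 arrays of experiment 2 (adjusted p = 0.0537) or the Th1/2 arrays of experiment 1 (0.0603).

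At 48 to 120 h the summed level of the macrophage and monocyte markers was 9.10 to 9.18 in Th0 cells and 9.04 to 9.21 in Th1 cells, and it reached 10.74 in Th1/2 and 11.21 in Th2 cells. In that sum the gene that differed was Adgre1, with a late Th1 minus Th2 difference of -2.52 (adjusted p = 2.43e-24), while those of Csf1r, Lyz2, Cd14 and Mpeg1 lay between -0.01 and 0.05 and did not pass. The part of these markers in the ligand differences was not tested. Between Th1 and Th0 cells none of the 8 ligands passed limma's test in either window, where 5.8% of all genes differed late and 0.123% early. Their late differences lay between -0.10 and 0.39 and no unadjusted p was under 0.05, while in the early window Cxcl10 alone had one, with a difference of 0.69. Between Th2 and Th1/2 cells, where 4.13% of all genes differed late and 0.166% early, none of the 8 passed limma's test. At an unadjusted p under 0.05 the count was 0 late and 1 early, Ccl22, and with the block within time points Ccl5 passed late, 1 of 8 where 9.59% of all genes did, but not with the other 2 kinds of block.

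**Figure D4:**
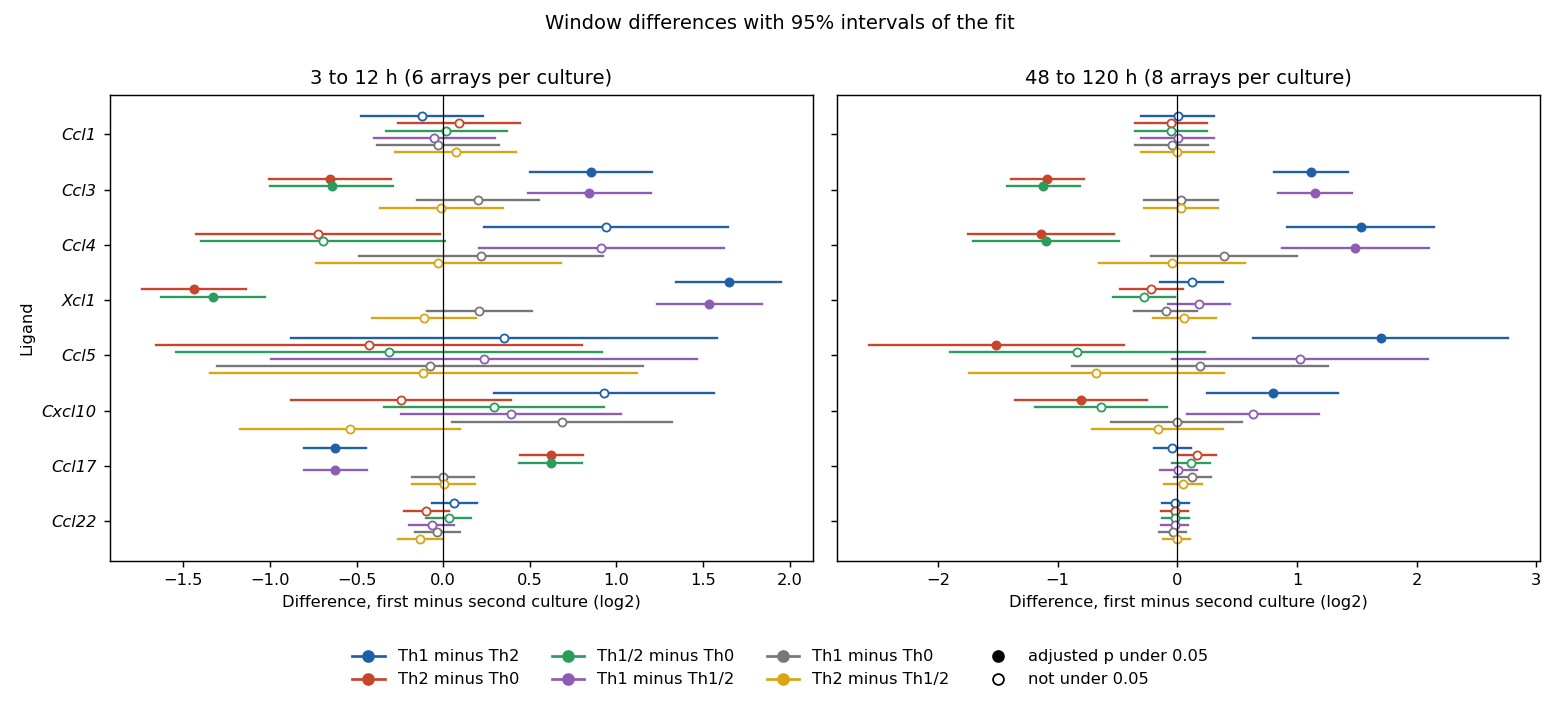
Differences in mean log2 level between the 6 pairs of cultures for each ligand, over 3 to 12 h (left) and 48 to 120 h (right), with 95% intervals of the limma fit and filled points where the adjusted p was under 0.05. Xcl1 and Ccl17 passed in the early window and not in the late one, Ccl4, Ccl5 and Cxcl10 in the late one and not in the early one, and Ccl3 in both.

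The change of the Th1 minus Th2 difference from the early to the late window was tested directly. It passed limma's test for 2 of the 8 ligands, Xcl1 and Ccl17, against 8.75% of all genes. For Xcl1 the difference was 1.65 early and 0.12 late, and for Ccl17 it was -0.62 early and -0.04 late. The late Xcl1 means of both cultures lay under 7.77 and Ccl17 was near background, so the sizes of these late differences are not measured.

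Whether the difference between cultures with and without IL-4 depended on IL-12 was tested as the late Th1/2 minus Th1 difference against the late Th2 minus Th0 difference, with the reservation that the antibodies differ too. None of the 8 members passed limma's test (1.94% of all genes did), and none had an unadjusted p under 0.05. For Ccl3 the values were -1.15 with IL-12 and -1.09 without it, a difference of -0.06 (95% interval -0.50 to 0.37). All late Ccl3 arrays of Th1/2 and Th2 cells lay under 7.77, with a highest level of 7.28 in each culture. Ccl3 was thus too dim in both cultures with IL-4 for the late test to show whether its difference depended on IL-12. Earlier times, when Ccl3 was brighter, were not tested in this way. For Ccl5 the values were -1.03 and -1.51, with a wide interval of -1.02 to 1.99.

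Among one another, Ccl3 and Ccl4 had the most similar course (r = 0.933 over the 37 condition means, a description only). Il3, which encodes a T-cell cytokine that acts on myeloid progenitors, and Ercc1 followed Ccl3 with r of 0.895 each. Ercc1, Il2 and Cd200 were closest to Ccl4 (r from 0.944 to 0.955). Ccl1 was nearest to Ube2cbp, Eef1d and Tcte3 (0.957 to 0.964), and Ccl17 was nearest to Mex3a, Fcer2a and Npw (0.779 to 0.835). The genes nearest to Ccl5 were Dhx58, Ifi27l2a and Sdcbp2 (0.913 to 0.918), of which Dhx58 and Ifi27l2a are known as interferon-induced genes. For Cxcl10 they were Trps1, Tmem65 and Kit (0.748 to 0.80), and for the dim Ccl22 Dffa, Lyrm7 and Trappc2 (0.646 to 0.676).

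Few other chemokine ligands were detected. Of 30 listed, 29 were on the array and 16 passed the filter, 12 of them near background. In no culture was any of the 16 kinetic, against 26.4% to 28.9% of all genes. None differed late between Th1 and Th2 cells by limma's test, against 20.4% of all genes (2 had an unadjusted p under 0.05). By the F-test over time, 3 passed for Th1 against Th2 cells (12.5% of all genes), 3 for Th2 against Th0 cells (16.7%) and 1 for Th1 against Th0 cells (2.32%). Neither the early nor the late window covers 24 and 35 h. There Ccl9, not near background, averaged 7.84 in Th0 and 7.94 in Th1 cells, against 6.69 in Th1/2 and 6.80 in Th2 cells. In the early window 2 of the 16 were higher in Th1 than in Th2 cells, where 0.536% of all genes were. These were the Cxcr3 ligand Cxcl9 by 0.88 (SE 0.12, adjusted p = 9.52e-07) and Cxcl16, near background, by 0.25 (adjusted p = 0.0245).

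Of the receptors of the 8 ligands, 7 of 8 listed were on the array and 5 passed the filter, with Ccr3 and the scavenger receptor Ackr2 near background. Ccr8, the receptor of Ccl1, was lower in Th1 than in Th2 cells over the late window by a difference of -3.10 (SE 0.17, adjusted p = 9.64e-19), while the difference of Ccl1 itself was 0.00. All late Ccl1 arrays of these cultures lay below the median of all values, so the ligand was too dim there to be compared. Cxcr3, the receptor of Cxcl10, was higher in Th1 cells by 2.34 (SE 0.12, adjusted p = 3.83e-20). Ccr4, the receptor of Ccl17 and Ccl22, was lower in Th1 cells (-0.82, adjusted p = 2.78e-09). In the early window the same 3 receptors had the same direction, with differences of -0.89, 0.61 and -0.69.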

How the data were processed

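RNA of naive CD4+ T cells and of Th0, Th1, Th1/2 and Th2 cultures was hybridized by the authors to bead arrays. The deposited values are intensities on a linear scale, normalized between arrays (medians 107 to 111, range 55.8 to 69892). According to the methods, arrays were corrected for background, quantile normalized and put on the log2 scale, with software not stated in the material at hand. The log2 of the intensities was taken with no further normalization, and precision is limited by the number of arrays. Of 45135 probes, 34773 carried 1 gene symbol, 18 several and 10344 none. Probes with a condition mean above the median of all values were kept, 23115 probes for 13817 genes, and each gene was read from its brightest probe.

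All tests used limma 3.58.1 in R 4.3.3, with 1 mean per condition over all 74 arrays and Benjamini-Hochberg adjustment over all genes in each contrast at 0.05, and at least 2-fold at single time points. An F-test over condition means stood in for the time-course regression of the methods. Window means treat the arrays of a culture at successive times as independent. Alternatives changed the normalization, the filter, the probe, the variance model, the fold and window criteria, the replicate block and the arrays kept. The statistics were tested on simulated data. The experiment number pairs the arrays, since 2 independent experiments were run: residuals of arrays of the same experiment and time point had a median correlation of 0.536 over 54 pairs, 52 of them over 0.1. The experiment was therefore also fitted as a replicate block.

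The 8 ligands, the gene lists and the rule for named genes were chosen with earlier results of these data known. The rule takes all 8 ligands, the 3 genes most like each, the genes of each list with the largest late differences past the test between Th1 and Th2 cells, and the receptors. Ccl9, Cxcl9, Cxcl16 and the single markers were named after their values were seen. Promoter sequences and gene positions are from RefSeq (GRCm38.p6), and 6 of the 8 ligands matched in the promoter table.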

Additional observations from a re-analysis of the deposited data

Results flagged for a closer look

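The Th1 minus Th2 difference of Xcl1 was not the same in the early and the late window, by limma's test of the late minus the early difference. In the late window the Xcl1 means of both cultures lay under 7.77, at 7.50 in Th1 and 6.72 in Th2 cells at 48 h. The size of the late difference is thus not measured. The difference was 1.65 over 3 to 12 h and 0.12 over 48 to 120 h, a change of -1.53 (SE 0.20, 95% interval -1.93 to -1.13, adjusted p = 1.62e-07). Over its alternatives this value ranged from -1.84 to -1.22, with adjusted p from 4.72e-10 to 8.65e-04.

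The same test singled out Ccl17, near background throughout, whose difference went from -0.62 early to -0.04 late, a change of 0.58 (SE 0.12, 95% interval 0.34 to 0.82, adjusted p = 4.71e-04). Over its alternatives the change ranged from 0.51 to 0.69, with adjusted p up to 0.0374. Of all genes, 8.75% passed this test.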

How the results depend on the processing

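Of 244 recomputed counts of ligands, 232 stayed within 1.5 times the reported count, as did 234 of 240 when the arrays of 1 culture in 1 experiment were left out. Of the values of single ligands past the test, none changed sign, 16 of 272 no longer passed, and 28 of 290 no longer passed with arrays left out. With the replicate block within time points, 5 ligands differed late between Th1/2 and Th0 cells, 4 between Th1 and Th1/2 cells, 1 between Th2 and Th1/2 cells, and 5 early between Th1 and Th2 cells. With a random replicate block these counts were 5, 4, 0 and 5, and with the experiment as 1 replicate block over all times they were the reported 2, 2, 0 and 3. No kind of block changed another count by more than 1.5 times. In a late window of 73 to 120 h, 0 ligands differed in Th1 against Th2, Th2 against Th0, Th1/2 against Th0 and Th1 against Th1/2 cells by limma, while at an unadjusted p under 0.05 the counts were 2, 1, 0 and 1. The window of 48 h is left out by construction. With a stricter filter, which drops Ccl17 and Ccl22, 1 ligand (Xcl1) had a Th1 to Th2 difference that changed from early to late.

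With the arrays of 1 culture in 1 experiment left out, the late counts ranged from 2 to 4 for Th1 against Th2 cells (2, Ccl3 and Ccl4, when either Th1 in experiment 1 or Th2 in experiment 2 was missing), from 2 to 4 for Th2 against Th0 (2 without the Th2 arrays of experiment 2), from 1 to 3 for Th1/2 against Th0 (1 without the Th1/2 arrays of experiment 1) and from 2 to 4 for Th1 against Th1/2 cells (4 without the Th1 arrays of experiment 2). The count over time for Th1 against Th0 cells ranged from 0 to 1 (Cxcl10, without the Th1 arrays of experiment 2). The early Th1 minus Th2 difference of Ccl3 no longer passed without the Th2 arrays of experiment 1 (0.77, adjusted p = 0.136). The cause of these changes was not tested. With 2 arrays per condition and levels close to the median of all values, small differences in Ccl17, Ccl22 and Cxcl10 may have gone undetected. The block raised the genes called between Th1 and Th2 cells from 205 to 487 early, and leaving out the Th1 arrays of experiment 1 lowered them to 115.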

Other observations

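Ccl5 and Cxcl10 differed between the experiments together. Over the 36 conditions after 0 h, the gap between experiment 1 and experiment 2 in Ccl5 and that in Cxcl10 had an r of 0.725, a description over arrays that share time and culture. The Cxcl10 gap at 48 h was 2.5 in Th1 cells and 1.90 in Th0 cells, whose cultures also had the widest Ccl5 gaps (3.62 and 3.44), and 0.00 in Th1/2 and 0.15 in Th2 cells, where the Ccl5 gaps were 2.76 and 2.96. Dhx58, the gene whose course was most like that of Ccl5, was at 11.19 in experiment 1 and 8.48 in experiment 2 in Th0 cells at 48 h and at 10.72 and 8.87 in Th1 cells. Ifi27l2a was at 15.03 and 13.82 in Th1 cells and at 14.08 and 12.80 in Th2 cells at that time. The genes nearest to Cxcl10, Trps1, Tmem65 and Kit, had gaps between -0.51 and 0.21 in Th0 and Th1 cells at 48 h.

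The naive arrays of the experiments differed in Ccl4 by 2.19 on the log2 scale (6.81 and 9.0) and in Ccl3 by 1.03 (6.88 and 7.91). At 35 h the rises of these genes against 0 h were larger in experiment 1 in all 4 cultures. This did not hold at every later time. At 120 h Ccl4 was again higher in experiment 2 than in experiment 1 in all 4 cultures, with 9.74 against 7.12 in Th1 cells and 8.73 against 6.62 in Th1/2 cells.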
